A study of Mus musculus with 4 samples.

Results

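The platelet and megakaryocyte genes described here are Itga2b, Itgb3, Gp1ba, Gp1bb, Gp5, Gp9, Pf4, Ppbp and Vwf, 9 of the 17178 genes with a symbol on the array. They are carried by 10 probes, found by matching each probe's transcript to the gene's RefSeq record. The set was chosen by the measured ratio of Itga2b, which was low in an earlier look at the same arrays, and the other 8 genes were added by name to ask whether they fell with it. The ratio of Itga2b is therefore given as a description with no test. Of the 9 genes, 6 passed the filter on dim probes and 3 (Gp1ba, Gp5 and Gp9) did not.

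RNA of the gastric lymph node (the left pancreatic node) was set against RNA of the pancreatico-duodenal lymph node (the right pancreatic node) in 4 female NOD mice aged 12 weeks, a strain that develops autoimmune diabetes. Each mouse gave 1 two-colour array on which its gastric node carried Cy5 and its pancreatico-duodenal node Cy3. All 4 arrays lay on 1 slide and were read in 1 scan. The dyes were not swapped, so dye and node cannot be told apart in any value below, and both nodes came from NOD mice, with no other strain beside them. A log2 ratio is the gastric over the pancreatico-duodenal node, so a negative ratio means a lower signal in the gastric node. Whole nodes were used, and in such bulk RNA fewer cells of a type and less RNA per cell cannot be told apart. Between 67.1% and 71.4% of probes were well above background in the gastric channel and between 59.6% and 62.6% in the pancreatico-duodenal channel, and no spot was saturated.

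Platelets are cell fragments shed by megakaryocytes and carry RNA made in that parent cell. Their integrin, formed by the chains that Itga2b and Itgb3 encode, binds fibrinogen once the platelet is activated, while a complex of Gp1ba, Gp1bb, Gp9 and Gp5 products catches von Willebrand factor on damaged vessel walls. Platelet granules hold the chemokines Pf4 and Ppbp. Transcription factors of the GATA and ETS families are known to drive many of these genes in megakaryocytes. Several of the genes are also used elsewhere: Itga2b in blood progenitors, mast cells and some lymphatic endothelial cells of mouse nodes, Itgb3 with the Itgav chain in many cells, and Vwf in blood endothelium.

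RefSeq promoter windows of GRCm38.p6, which run from 250 bases before to 50 bases after a gene's start, were at hand for 7 of the 9 genes (all but Itgb3 and Vwf). They were searched on both strands for GATA letters and for ETS letters. The GATA letters were AGATAA with its close form AGATAG as well as TGATAA with its close form TGATAG. The ETS letters were AGGAAG and the close form CGGAAG, and a GATA and an ETS match may share bases at their ends. Of the 7 windows, 4 held GATA letters and 6 held ETS letters, and 4 held both. Over 32851 promoter windows of the same length, 29.8% held the GATA letters, 46.5% the ETS letters and 12.6% both. The windows of Itga2b, Pf4 and Ppbp are shown because these genes had the lowest ratio, the highest and the widest spread among those that passed the filter. They lie at chr11:102469834-102470133 on the minus strand, chr5:90772185-90772484 on the plus strand and chr5:90768268-90768567 on the plus strand, and each is written 5′ to 3′ along its gene with GATA or ETS letters in capitals, which read as the reverse complement where they lie on the opposite strand.
Itga2b: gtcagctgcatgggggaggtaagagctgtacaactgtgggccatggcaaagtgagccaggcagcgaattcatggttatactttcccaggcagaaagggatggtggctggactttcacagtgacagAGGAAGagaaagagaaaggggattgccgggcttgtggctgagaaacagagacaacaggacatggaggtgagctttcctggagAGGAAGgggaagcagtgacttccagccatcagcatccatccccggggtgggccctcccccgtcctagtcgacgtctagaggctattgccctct
Pf4: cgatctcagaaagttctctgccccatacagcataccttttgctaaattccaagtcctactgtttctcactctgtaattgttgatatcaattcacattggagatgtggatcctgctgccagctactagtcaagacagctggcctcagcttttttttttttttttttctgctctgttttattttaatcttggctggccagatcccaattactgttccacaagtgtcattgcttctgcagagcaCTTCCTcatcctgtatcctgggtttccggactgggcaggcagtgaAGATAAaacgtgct
Ppbp: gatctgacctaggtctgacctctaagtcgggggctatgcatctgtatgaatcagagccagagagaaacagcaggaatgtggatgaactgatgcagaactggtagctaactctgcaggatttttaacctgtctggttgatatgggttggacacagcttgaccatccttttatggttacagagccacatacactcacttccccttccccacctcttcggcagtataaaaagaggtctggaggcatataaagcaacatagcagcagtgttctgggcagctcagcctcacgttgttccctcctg
The Itga2b window held 2 ETS matches and 0 GATA matches, the Pf4 window 1 of each, and the Ppbp window 0 of both. A match is a stretch of letters and not a measured binding site, and a window with none says only that these letters are not within it.

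The low signal of Itga2b in the gastric node was not seen in the other 5 genes of the set that passed the filter. Gp1bb and Ppbp among them were dim, and there the offset added before the log draws a ratio towards 0. Clec1b, a platelet receptor outside the set, was called lower (mean log2 ratio -0.80, limma adjusted p = 0.0198) and is described below. The mean log2 ratio of Itga2b was -1.30 ± 0.36 (SD, n = 4 mice), a 2.46-fold lower signal, while the other 5 genes that passed the filter had mean ratios between -0.27 and 0.23. Of these 5, 0 were called lower and 0 higher by limma's moderated test with Benjamini-Hochberg adjustment over all 21320 features (threshold 0.05), and 0 had an unadjusted p under 0.05. Over all features 4.45% were called lower and 3.09% higher. The median ratio of the 5 genes was -0.08, beside 0.03 for all features, and their adjusted p-values ran between 0.225 and 0.8294. The lowest edge of their 95% confidence intervals was -0.85, the edge for Ppbp. In each of the 4 mice the ratio of Itga2b lay below that of each of the other 8 genes. This order is a description only, since Itga2b was chosen for its low ratio and Gp1ba, Gp5 and Gp9 did not pass the filter. Centring each array on its median in place of loess left Itga2b at -1.04 and called Gp1bb lower (-0.16) and Itgb3, Pf4 and Vwf higher (0.59, 0.69 and 0.35), but under that setting the median of all features was itself 0.32 and 14887 features were called.

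**Figure D1:**
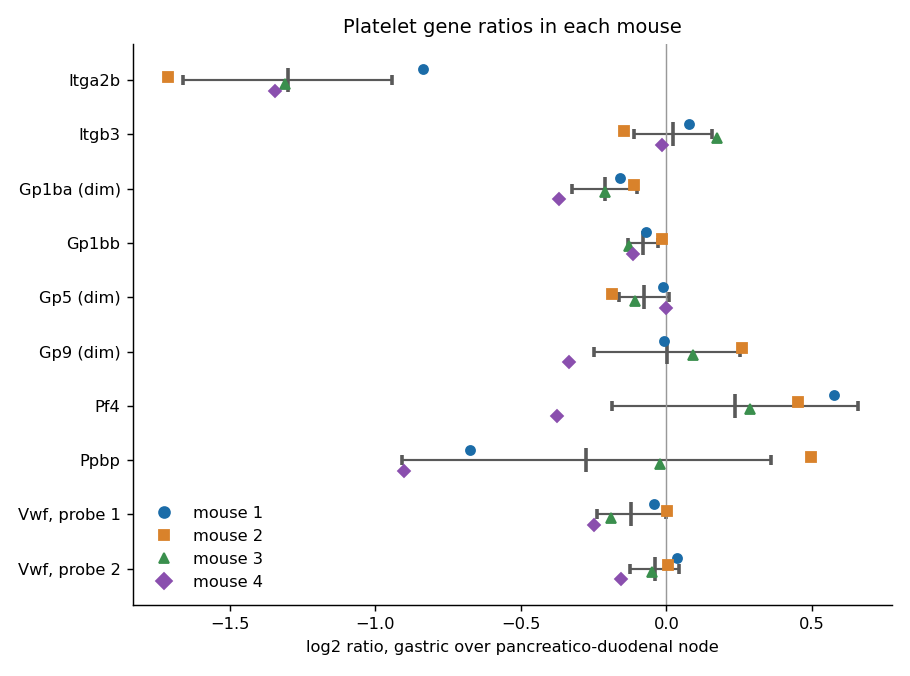
Log2 ratio of the gastric over the pancreatico-duodenal node (x axis) for the 10 probes of the platelet genes, with 1 point per mouse and the mean ± SD over 4 mice as a bar. Genes marked dim did not pass the filter. The Itga2b points lie between -1.71 and -0.84, and the points of all other probes lie at -0.90 or above.

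Itga2b encodes the integrin alpha IIb chain (CD41), the surface protein most often used to mark megakaryocytes and platelets. Its single probe (A_52_P459564) had normalized log2 intensities of 7.49, 7.43, 6.92 and 6.80 in the gastric nodes of mice 1 to 4, against 8.32, 9.15, 8.23 and 8.14 in their pancreatico-duodenal nodes. The 4 gastric levels all lay below the 4 pancreatico-duodenal levels, though the share of all features that do so was not counted. The ratios were -0.84, -1.71, -1.31 and -1.34. The smallest difference was in mouse 1 and the largest in mouse 2. The probe was well above background in both channels on 4 of 4 arrays. By mean ratio it ranked 21 from the lowest among the 21320 features.

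The deposited signals of this probe, with background subtracted and nothing else done, were 197, 176, 95.1 and 95.01 in the gastric nodes, against 199, 399.7, 218 and 185 in the pancreatico-duodenal nodes. The gastric channel was brighter as a whole: the median spot above background in both channels had a gastric over pancreatico-duodenal signal ratio of 2.03, 1.73, 1.50 and 1.94 on the 4 arrays. For Itga2b that ratio was 0.987, 0.441, 0.436 and 0.514, below the median spot on every array. In mouse 1 the deposited signals of the 2 nodes were thus nearly equal, and the ratio of -0.84 rests on the normalization of the brighter gastric channel. The dim genes Gp1ba, Gp1bb, Gp5 and Gp9 lay below the median spot on every array, and Ppbp in mice 1, 3 and 4. The signal ratios were 0.825, 0.664, 0.537 and 0.612 for Gp1ba and 1.31, 1.06, 0.845 and 1.09 for Gp1bb. Itgb3 lay above the median spot on every array, and Pf4 and Vwf lay on both sides of it. The median spot takes no account of intensity, and the shift of the gastric channel differed with it. With loess, which follows intensity, Itgb3 stood at 0.02 and Gp1bb at -0.08, against 0.59 and -0.16 under median centring. A dim gene below the median spot is therefore not read as a fall.

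Itgb3, the beta 3 chain that pairs with Itga2b on platelets, was well above background and did not differ between the nodes beyond the spread over mice. Its log2 levels were 11.53, 11.47, 11.41 and 11.35 in the gastric nodes, against 11.45, 11.61, 11.24 and 11.37 in the pancreatico-duodenal nodes. The ratios were 0.08, -0.15, 0.17 and -0.02, with a mean of 0.02 ± 0.14 (SD, n = 4) and a 95% interval between -0.13 and 0.18 (limma adjusted p = 0.8294). The levels of the 2 nodes overlapped. Within each mouse the Itga2b ratio lay below the Itgb3 ratio, with differences of -0.92, -1.57, -1.48 and -1.33 and a mean difference of -1.32 ± 0.29 (SD, n = 4). These differences are a description, as Itga2b was chosen for its low ratio.

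**Figure D2:**
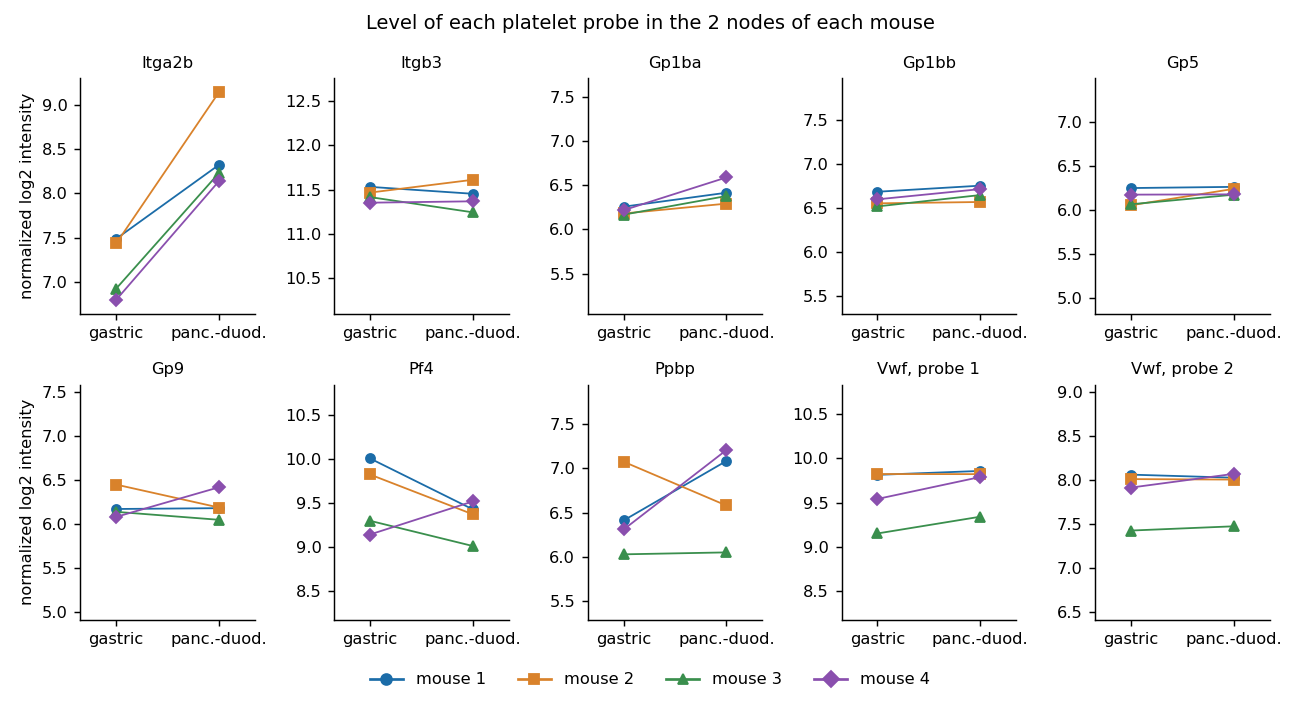
Normalized log2 intensity (y axis, 1 panel per probe with the same length of scale) in the gastric node at the left and the pancreatico-duodenal node at the right, with a line joining the nodes of each of the 4 mice. The Itga2b lines all rise towards the pancreatico-duodenal node (log2 ratios between -1.71 and -0.84), whereas the Itgb3, Pf4 and Ppbp lines run both ways.

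The von Willebrand factor receptor lay at the edge of detection. Gp1bb, its beta subunit, was the only gene of the complex to pass the filter. Its log2 levels were 6.69, 6.56, 6.52 and 6.60 in the gastric nodes, against 6.76, 6.57, 6.65 and 6.72 in the pancreatico-duodenal nodes, which overlap. Its log2 ratios were -0.07, -0.02, -0.13 and -0.12. The mean was -0.08 ± 0.05 (SD, n = 4), with a 95% interval between -0.19 and 0.03 (limma adjusted p = 0.263). The sign was negative in 4 of 4 mice, as it was for 3616 of the 21320 features, and the size was small beside that of Itga2b. Gp1bb was dim as well, so the offset draws its ratio towards 0. With an offset of 16 in place of 50 its mean ratio was -0.13. Gp1ba, the subunit that binds von Willebrand factor itself, was above background on 2 of 4 arrays in each channel. Its log2 levels were 6.26, 6.18, 6.17 and 6.22 in the gastric nodes, against 6.42, 6.29, 6.38 and 6.59 in the pancreatico-duodenal nodes. The groups did not overlap, but the share of all features without overlap was not counted. The ratios were -0.16, -0.11, -0.21 and -0.37, with a mean of -0.21 ± 0.11 (SD, n = 4), and they were not tested because the gene did not pass the filter. Gp5, which modulates the complex, was above background on 1 gastric and 0 pancreatico-duodenal arrays, and Gp9, needed to bring the complex to the surface, on 1 of 4 arrays in each channel. The Gp9 ratios were -0.01, 0.26, 0.09 and -0.34 and so took both signs, while those of Gp5 lay between -0.19 and 0.00. The means of Gp5 and Gp9 were -0.08 and 0.00, at signals where the offset added before the log draws the ratio of 2 dim channels towards 0. Whether these 3 genes fell like Itga2b was not detectable at such signals.

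Pf4, a granule chemokine that binds heparin and checks megakaryocyte growth, was clearly above background and went both ways. Its log2 levels were 10.01, 9.82, 9.30 and 9.14 in the gastric nodes, against 9.43, 9.37, 9.01 and 9.52 in the pancreatico-duodenal nodes. The ratios were 0.58, 0.45, 0.29 and -0.37, so the gastric node was the higher one in mice 1, 2 and 3 and the lower one in mouse 4. The mean of 0.23 ± 0.42 (SD, n = 4) had a 95% interval between -0.16 and 0.63 (limma adjusted p = 0.360), and the mean carried the opposite sign to that of Itga2b.

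Ppbp, the precursor of platelet basic protein and of a neutrophil attractant, was dim and varied most. Its log2 levels were 6.41, 7.08, 6.03 and 6.31 in the gastric nodes, against 7.08, 6.58, 6.05 and 7.21 in the pancreatico-duodenal nodes. It was above background on 3 of 4 arrays in each channel. The ratios were -0.67, 0.50, -0.02 and -0.90, which are low in mice 1 and 4, near 0 in mouse 3 and high in mouse 2, the mouse in which Itga2b was lowest. The mean of -0.27 ± 0.63 (SD, n = 4) was smaller than its spread (limma adjusted p = 0.457).

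Vwf, the large plasma protein that tethers platelets, was measured by 2 probes that gave similar ratios. The brighter probe (A_51_P103397) had log2 levels of 9.81, 9.82, 9.15 and 9.54 in the gastric nodes, against 9.86, 9.82, 9.34 and 9.79 in the pancreatico-duodenal nodes. Mouse 3 was the lowest in both nodes, and the levels of the nodes overlapped. This probe had ratios of -0.04, 0.00, -0.19 and -0.25, with a mean of -0.12 ± 0.12 (SD, n = 4) and a 95% interval between -0.27 and 0.03 (limma adjusted p = 0.225). The other probe (A_51_P103406) had ratios of 0.03, 0.01, -0.05 and -0.16, with a mean of -0.04. Since blood endothelium makes Vwf as well, its level in a whole node is not a measure of platelets alone.

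**Figure D3:**
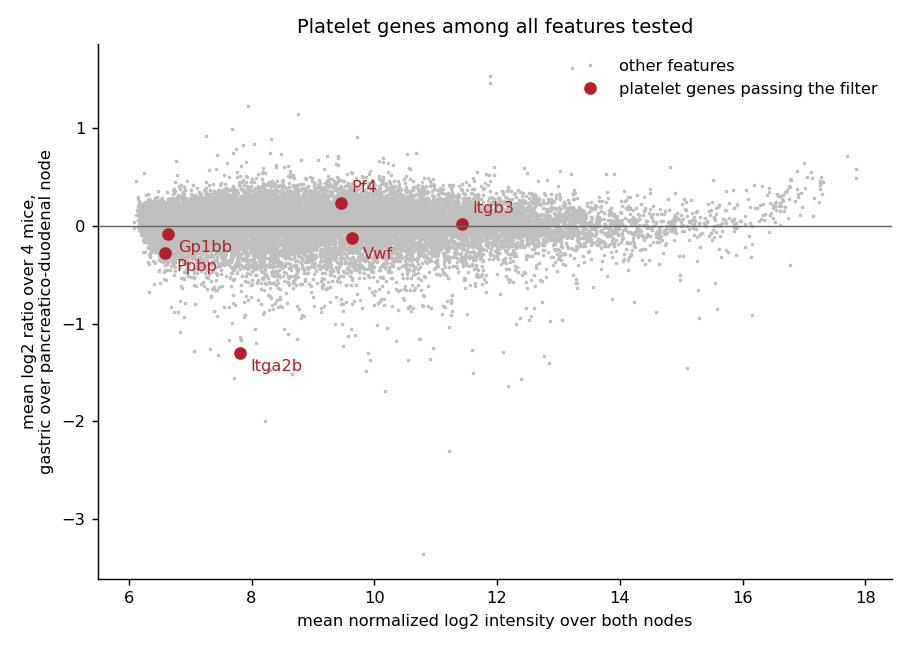
Mean log2 ratio over 4 mice (y axis) against the mean normalized log2 intensity of both nodes (x axis) for the 21320 features tested, in grey, with the 6 platelet genes that passed the filter in red. Itga2b lies at -1.30 below the cloud of features of like intensity, and the other 5 genes lie between -0.27 and 0.23.

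Calls over all features depended on mice 2, 3 and 4: against 949 lower and 659 higher features with 4 mice, 0 features were called without mouse 2, 3 without mouse 3, 1 without mouse 4 and 2167 without mouse 1. An intensity trend with robust variance likewise called 0 features. The calls named from here on hold for 4 mice with the main settings.

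The wider platelet pathway, 7 lists with 73 genes tested, held 9 lower and 2 higher calls and a median ratio of -0.04, beside shares of 4.45% lower and 3.09% higher over all features. Among the other platelet surface receptors, 1 of 12 tested genes was called lower and 0 higher, with a list median of -0.03. The call was Clec1b, the receptor for podoplanin on platelets, which in mouse nodes is also found on some myeloid cells. It fell by 0.80 ± 0.13 on the log2 scale in the gastric nodes (SD, n = 4, limma adjusted p = 0.0198), with ratios of -0.89, -0.64, -0.92 and -0.74 that are negative in 4 of 4 mice. The platelet receptors F2rl2, P2rx1, Itga2 and Mpig6b were above background on at most 1 array in either channel.

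None of the 13 megakaryocyte transcription factors tested was called in either direction, and their median was -0.03. The brightest of them were Zfpm1, the GATA partner also named FOG-1, with a mean ratio of 0.03 ± 0.22, and Lyl1, a haematopoietic helix-loop-helix factor, with 0.06 ± 0.20 (SD, n = 4 each). Among the 12 genes for granules, cytoskeleton and platelet shape 1 was called lower and 1 higher, with a median of -0.03. Cttn, a binder of cortical actin, fell by 0.38 ± 0.12 (limma adjusted p = 0.0316), and Myh9, the non-muscle myosin heavy chain, rose by 0.37 ± 0.11 (limma adjusted p = 0.0315, SD, n = 4 each). Under median centring Cttn stood at -0.12 and lost its call. Myh9 was very bright, with a mean log2 intensity of 15.84. Features between 12 and 16 had a median ratio of 0.01 and 2.42% called higher. Above 16 the median was 0.25 and 52.7% were called higher, so a rise at that end may stem from normalization, which was not tested. Of 21 genes that carry signals to platelet integrins, Itgav among them, 1 was called lower and 0 higher, with a median of 0.02. The call was Fermt3, the kindlin that activates beta integrins in blood cells, at -0.31 ± 0.12 (SD, n = 4, limma adjusted p = 0.0431), and it turned to 0.26 when arrays were centred on their median in place of loess.

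Eicosanoid synthesis and the receptor ligands held lower calls only. Of 4 eicosanoid genes 2 were called lower and 0 higher, with a median of -0.49. Tbxas1, thromboxane synthase, had ratios of -0.68, -1.26, -1.35 and -0.95, a fall of 1.06 ± 0.31 on the log2 scale (SD, n = 4, limma adjusted p = 0.0245), and its second probe averaged -0.97. Ptgs1, the cyclooxygenase that platelets use, fell by 0.74 ± 0.31 (SD, n = 4, limma adjusted p = 0.0328). Ptgs1 lost its call under median centring (-0.24). Both enzymes are also made by macrophages. Of 7 ligand genes 3 were called lower and 0 higher, with a median of -0.33: Col3a1 at -0.84 ± 0.34, Col1a1 at -0.61 ± 0.25 and Fn1 at -0.34 ± 0.09 (SD, n = 4 each, limma adjusted p of 0.0319, 0.0329 and 0.0310). These are matrix genes of stromal cells. The further probes averaged -0.51 and -0.11 for Col1a1, -0.12 for Col3a1, and -0.37 and 0.00 for Fn1. Under median centring Fn1 turned to 0.19, and Col1a1 (-0.04) and Col3a1 (-0.22) lost their calls. The fibrinogen genes Fga, Fgb and Fgg were above background on at most 1 array.

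Pf4 and Ppbp belong to a chemokine family of which 4 relatives or receptors were tested, with 1 lower call, 1 higher call and a median of -0.03. Cxcl5, a neutrophil attractant close to Ppbp, fell by 0.58 ± 0.23 (SD, n = 4, limma adjusted p = 0.0330). It was dim, and well above background on 2 gastric and 4 pancreatico-duodenal arrays. Cxcl5 thus passed the filter only through the node where it was higher, so its call carries little weight. Cxcr2, the receptor through which the processed Ppbp product acts on neutrophils, rose by 0.54 ± 0.21 (SD, n = 4, limma adjusted p = 0.0330), whereas its dimmer probe averaged 0.15. That dimmer probe was not well above background on any pancreatico-duodenal array.

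The 8 named genes whose ratios in the 4 mice lay nearest to those of Itga2b, by the root mean square difference over mice, were Hk3, Cd163, Dpep1, Tbxas1, Scara5, Aebp1, Fndc5 and Wfdc1. No gene of the 9 was among them. They were picked for likeness, so their ratios are a description with no test. Hk3, a hexokinase of myeloid cells, lay nearest, with a difference of 0.128 and ratios of -0.79, -1.76, -1.55 and -1.37 in mice 1 to 4. Cd163, the haemoglobin scavenger receptor of macrophages, followed at 0.164 with ratios of -0.82, -1.41, -1.37 and -1.46. The low mouse 2 and the less low mouse 1 were shared by Itga2b and Hk3. Dpep1, a membrane dipeptidase, lay at 0.310, Tbxas1 at 0.313, and Scara5, a ferritin receptor of stromal cells, at 0.345. Aebp1, a matrix protein, also lay at 0.345, Fndc5, the precursor of irisin, at 0.368 and Wfdc1, a secreted protein of stroma, at 0.369. Hk3 had log2 levels of 9.80, 9.36, 8.67 and 9.14 in the gastric nodes, against 10.59, 11.12, 10.22 and 10.51 in the pancreatico-duodenal nodes.

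**Figure D4:**
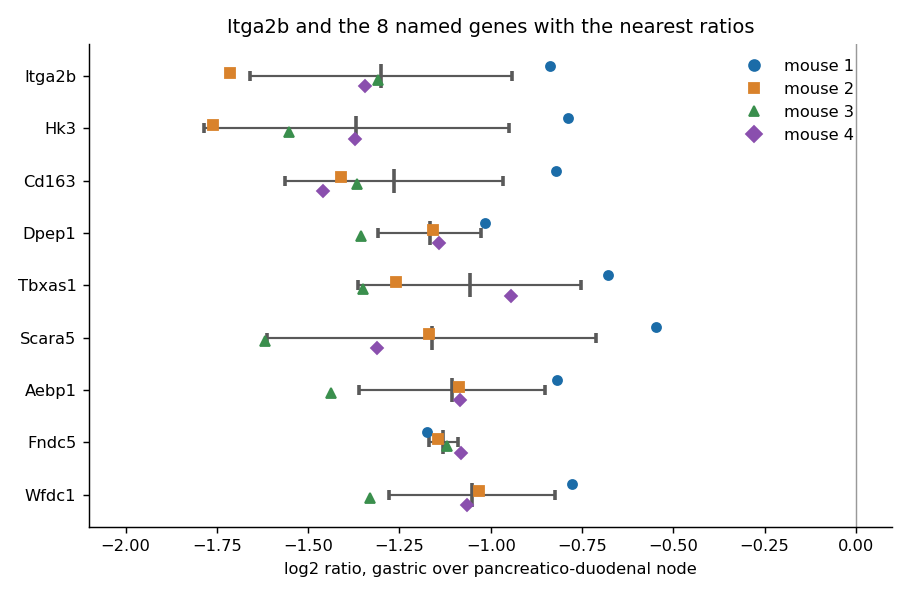
Log2 ratio of the gastric over the pancreatico-duodenal node (x axis) for Itga2b and the 8 named genes nearest to it, with 1 point per mouse and the mean ± SD over 4 mice as a bar. Mouse 1 has the least negative ratio for Itga2b and for 7 of the 8 genes, and Fndc5 is the exception.

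Markers of other cells that could hold RNA of these genes were counted in the same fit. Each count from here on is to be set beside the 4.45% of all features called lower and the 3.09% called higher. Of 15 macrophage markers tested, 7 were called lower and 1 higher, and the list median was -0.27, -0.47, -1.13 and -0.65 in mice 1 to 4. Adgre1, a surface receptor of tissue macrophages, had a mean ratio of -1.36 ± 0.71, Cd163 of -1.26 ± 0.30 and C1qb, a complement subunit, of -1.04 ± 0.26 (SD, n = 4 each, limma adjusted p of 0.0433, 0.0198 and 0.0218). A second, dimmer Adgre1 probe averaged -0.54. Folr2, named after its values were seen, was the macrophage marker called higher, at 0.74 ± 0.36 (SD, n = 4, limma adjusted p = 0.0414). The 7 macrophage markers not called had mean ratios between -0.95 for Fcgr1 and 0.40 for Timd4. Of 16 lymphatic endothelial markers 6 were called lower and 1 higher, with list medians of -0.10, -0.22, -0.26 and -0.55. Stab1, a scavenger receptor of sinus-lining cells, fell by 0.87 ± 0.32, Reln, a secreted glycoprotein of lymphatic vessels, by 0.78 ± 0.33 and Stab2, a hyaluronan receptor, by 0.53 ± 0.25 (SD, n = 4 each, limma adjusted p of 0.0290, 0.0328 and 0.0413). A second Stab1 probe averaged -0.41, and Stab2 lost its call under median centring (-0.02). Nts, named after its values were seen, was the lymphatic marker called higher, at 0.28 ± 0.07 (SD, n = 4, limma adjusted p = 0.0380). The 9 lymphatic markers not called had mean ratios between -0.91 for Lyve1 and -0.004 for the bright Ccl21a, with Prox1 at -0.05. The list did not move as a whole. The part of macrophages and lymphatic endothelium in the low Itga2b signal was not tested.

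Blood endothelial markers, the other source of Vwf, held 5 lower and 0 higher calls among 18 tested genes, with list medians of 0.04, -0.23, -0.51 and -0.31. Tie1, an endothelial receptor kinase, had a mean ratio of -0.58 ± 0.07, Plvap, the diaphragm protein of fenestrated vessels, of -0.54 ± 0.18 and Eng, the TGF-beta co-receptor, of -0.47 ± 0.17 (SD, n = 4 each, limma adjusted p of 0.0198, 0.0290 and 0.0321). Under median centring Plvap turned to 0.05 and Eng to 0.02. The share of all features called lower was 4.45%. The part of blood endothelium in the Vwf ratio was not tested.

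Mast cells and progenitors can carry Itga2b as well. The shares called over all features were 4.45% lower and 3.09% higher. None of the 8 mast cell and basophil markers was called, with list medians of 0.09, -0.57, -0.29 and -0.05, and the brightest were Cma1, a mast cell chymase, at -0.41 ± 0.87 and Gata2, a factor of mast cells and progenitors, at -0.12 ± 0.19 (SD, n = 4 each). Of 10 progenitor markers 2 were called lower and 1 higher: Flt3, a cytokine receptor, fell by 0.64 ± 0.20, Hlf, a stem cell factor, fell by 0.48 ± 0.25 and Mycn, a Myc family factor, rose by 0.43 ± 0.11 (SD, n = 4 each, limma adjusted p of 0.0257, 0.0480 and 0.0280). The second Mycn probe averaged 0.01 and took both signs. Flt3 also marks dendritic cells, a list with 6 lower and 0 higher calls among 12 genes in which Aldh1a2, the retinal dehydrogenase, had the lowest ratio at -1.69 ± 0.34 and Fscn1, the actin bundler, stood at -0.65 ± 0.30 (SD, n = 4 each, limma adjusted p of 0.0198 and 0.0395). Fscn1 lost its call under median centring (-0.12). Of 7 spleen markers 2 were called lower, Nkx2-3, a homeobox factor, at -0.90 ± 0.09 and Treml4, a myeloid receptor, at -0.82 ± 0.25 (SD, n = 4 each, limma adjusted p of 0.0148 and 0.0250). Of 6 neutrophil markers, the cells that Ppbp attracts, 0 were called lower and 1, the receptor Cxcr2 given above, was called higher. The other 5 had mean ratios between -1.48 and -0.37 and were not called. The list median was -0.54 over the mean ratios, and 0.03, -1.22, -0.45 and -0.25 in mice 1 to 4.

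Red cell genes, whose RNA enters a node with blood as platelet RNA does, had ratios that differed between mice. Beside the counts stand shares of 4.45% lower and 3.09% higher over all features. The erythroid list held 1 lower and 0 higher calls among 7 tested genes, with list medians of 0.26, 0.12, 0.11 and 0.55, and the call was Epor, the erythropoietin receptor, at -0.40 ± 0.17 (SD, n = 4, limma adjusted p = 0.0404), which turned to 0.01 under median centring. The haemoglobin gene Hba-a1, named after its values were seen, had ratios of 2.20, 0.15, 0.52 and 2.98 in mice 1 to 4. Hbb-bt, named likewise, had 2.47, 0.18, 0.36 and 3.45. The gastric node of mice 1 and 4 thus had more haemoglobin signal, and in those mice the ratios were 0.58 and -0.37 for Pf4 and -0.67 and -0.90 for Ppbp. Neither haemoglobin gene passed the test (limma adjusted p of 0.116 for Hba-a1 and 0.133 for Hbb-bt).

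Signal of tissue around the nodes differed between mice. Of 19 exocrine pancreas genes 0 were called, and their median was -0.37, 0.21, -4.72 and 0.81, so the pancreatico-duodenal node of mouse 3 carried far more pancreatic RNA. Cela3b, a pancreatic elastase, and Prss3, a trypsin, had mean ratios of -1.40 ± 2.88 and -1.33 ± 2.93 (SD, n = 4 each). The 10 adipocyte genes, of which 0 were called, had medians of 1.65, -1.76, 0.17 and -1.58, with Fabp4, a fatty acid carrier, at -0.57 ± 1.59 and Cfd, the adipocyte protease adipsin, at 0.05 ± 2.65 (SD, n = 4 each). Without mouse 3 the mean Itga2b ratio was -1.30. The part of fat and pancreas RNA in the ratios of the platelet genes was not tested.

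**Figure D5:**
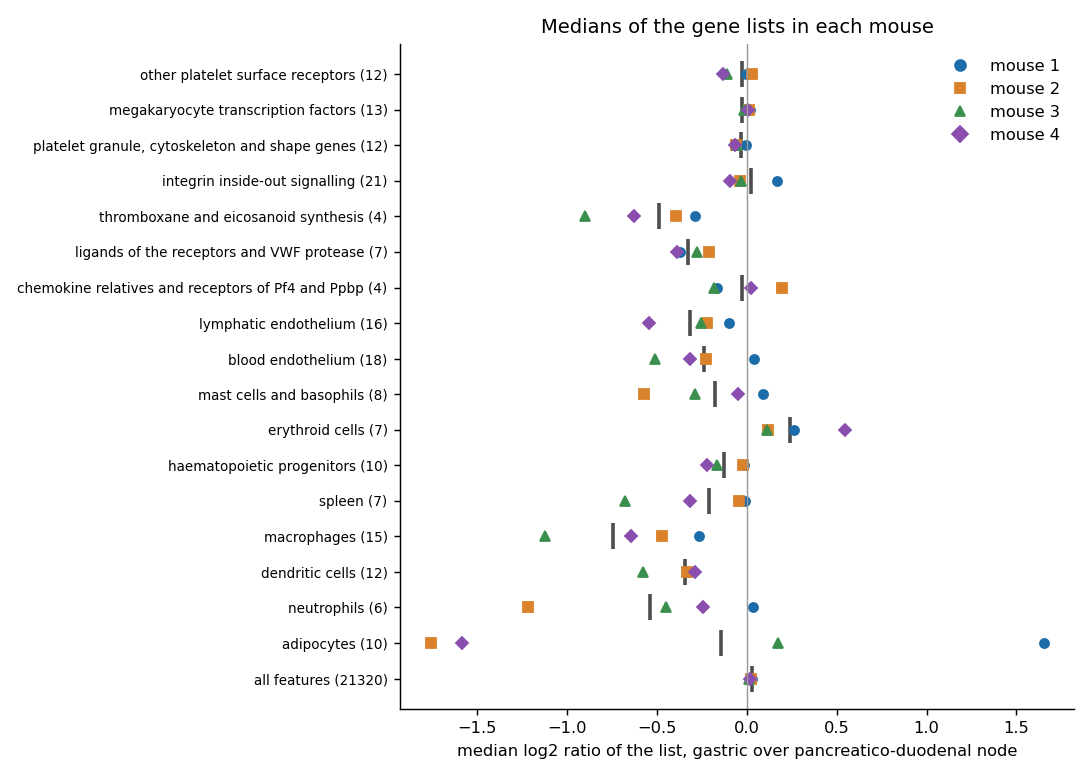
Median log2 ratio of each gene list (x axis, gastric over pancreatico-duodenal node) with 1 point per mouse and a bar at the median of the mean ratios, and the number of tested genes in brackets. The granule, eicosanoid, ligand, lymphatic endothelial, progenitor, spleen, macrophage and dendritic cell lists lie below 0 in all 4 mice, with medians of the granule list between -0.06 and 0.00 and of the macrophage list between -1.13 and -0.27. Exocrine pancreas, at -4.72 in mouse 3, is left out for scale.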

How the data were processed

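The deposited scanner files hold mean and background intensity of both channels for 45018 spots per array, made with Agilent Feature Extraction 10.2.1.3 per the file headers. They also hold the authors' processed intensity, background-subtracted and dye-normalized by that software, and its log10 ratio of Cy5 over Cy3, per the file headers. Log2 values in the series table deposited by the authors equalled the log2 ratio of processed Cy5 over Cy3 within 5.11e-05, and its column medians ran between -0.15 and -0.03, so that scale, centring and direction were settled.

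Mean intensities were corrected with normexp (offset 50) and loess within arrays in limma 3.58.1 (R 4.3.3; files were read with data.table, version 1.17.8), with control and outlier spots at weight 0. A probe was kept where 1 of its channels was well above background on 3 or more of the 4 arrays (27603 of 41174), with the brightest probe per gene. Names came from RefSeq (GRCm38.p6) through transcript accessions, for 24844 probes. Each of 21320 features was tested against 0 with lmFit and eBayes, paired within the mouse, and adjusted by the Benjamini-Hochberg method. The p-values rest on the spread between 4 mice, and the number of mice limits the precision. eBayes draws the variance of each feature towards a value shared by all features. For a gene with a small SD, its p-value and interval thus rest largely on that shared value. The fit was tested on simulated data. Levels are the normalized log2 intensity of a channel. Dim probes that failed the filter are given with their values and no test.

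The members and lists were chosen with earlier results of these data known. Named genes were all members, up to 3 called genes per list with the largest mean ratio (or the 2 brightest where none was called), and the 8 nearest to Itga2b; exceptions are marked. Background correction, normalization, filter, probe choice, variance model, pairing, threshold and leaving out each mouse were tried as alternatives.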

Additional observations from a re-analysis of the deposited data

Results flagged for a closer look

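In groups of 4 values, a highest or lowest value was looked at again where its gap to the nearest of the others as a share of the whole range exceeded Dixon's critical value at the 95% level. By chance about 1 in 20 groups meets this, and 51 ratios, 18 list medians and 20 sets of levels were looked at. For Vwf the pancreatico-duodenal level of mouse 3 stood apart on both probes: it was 9.34 on the brighter probe, beside 9.79 to 9.86 in the other mice, and 7.475 on the dimmer one, beside 8.005 to 8.07. The gastric Vwf level of that mouse was low too, so the ratio did not stand apart. The Cd163 ratio of mouse 1, at -0.821, lay above the -1.46 to -1.37 of the other mice. The median of the granule, cytoskeleton and shape genes was -0.003091 in mouse 1, beside -0.06 in the other mice, a gap of no size. The dendritic cell median of mouse 3 was -0.5752, beside -0.33 to -0.29 in the others.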

How the results depend on the processing

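The mean Itga2b ratio was negative under all 15 alternatives, between -1.87 and -1.04, and moved by more than its spread only with the scanner ratio (-1.87) and with the series table of the authors (-1.87). Under some alternatives almost no feature was called at all, so a member could hardly be called there. Over all features 0 were called without mouse 2, 3 without mouse 3 and 1 without mouse 4. With an intensity trend and robust variance 0 were called, and with unpaired channels 6. Of the other members 0 were called lower or higher under 14 of the 15 alternatives, these included, and at an adjusted p under 0.1. Median centring in place of loess was the exception, with 1 called lower and 3 higher (Gp1bb at -0.16, Itgb3 at 0.59, Pf4 at 0.69 and Vwf at 0.35); it moved the median of all features to 0.32 and called 14887 features, 2066 lower and 12821 higher. Relative to that median Itga2b stood at -1.36, Itgb3 at 0.26, Gp1bb at -0.48, Pf4 at 0.37, Ppbp at -0.68 and Vwf at 0.03. Median centring does not follow intensity, so for the dim Gp1bb and Ppbp these values are not read as a fall. The sign of Itgb3, near 0, turned to -0.005258 with the scanner ratio and -0.005275 with the series table, and ranged between -0.02746 and 0.07833 with each mouse left out.

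Over all features, 1049 were called with the scanner ratio (572 lower) and 584 lower with the series table, 1077 higher with arrays scaled to a common spread, and 0 (0 lower and 0 higher) with an intensity trend and robust variance. With no replicate block, that is, channels as unpaired samples, 6 were called, 5 lower and 1 higher; the fit reported pairs both nodes of a mouse. With each mouse left out, 0 to 2167 were called, 0 to 1323 lower and 0 to 844 higher. The causes were not tested.

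Genes outside the set also turned sign under median centring: Fermt3 to 0.26, Fn1 to 0.19, Plvap to 0.0539, Eng to 0.0224, Gata2 to 0.145, Epor to 0.0114 and Fabp4 to 0.0304. Cfd was at -0.13 with scaled arrays. With each mouse left out the range was -0.848 to 0.8229 for Cfd, -0.02979 to 0.1271 for Zfpm1, -0.02028 to 0.1314 for Lyl1, -2.097 to 0.007047 for Cela3b and -2.012 to 0.1041 for Prss3. Dim signal limits Gp1ba, Gp1bb, Gp5, Gp9 and Ppbp.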
